A study of Mus musculus with 6 samples.

Results

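The genes Eif2b1, Eif2b2, Eif2b3, Eif2b4 and Eif2b5 encode the 5 subunits of eIF2B, a translation initiation factor, and were followed in the skin of Hoxc13 mutant and wild type mice. They were chosen by gene symbol, with their lower values in mutant skin already known, and each had 1 probe set, so 5 of the 16331 probe sets tested are described. The mutant group held 3 skin samples labelled as Hoxc13 knockout with the allele Hoxc13tm1Mrc, and the wild type group held 3 skin samples labelled WT. All 6 samples were dissected skin of mice on a C57BL/6 background, labelled male, with 5 dpn in their titles and no treatment given. Hoxc13 encodes a homeobox protein needed for hair shaft formation. The zygosity of the mutants, the part of the gene that was disrupted, and whether a sample held 1 animal or several are not given in the sources used here. The design text calls the 3 samples of a group independent.

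eIF2B is the guanine nucleotide exchange factor of eIF2, the factor that brings the initiator tRNA to the ribosome. After each round of initiation eIF2 is left bound to GDP, and eIF2B exchanges it for GTP so that eIF2 can be used again. The gamma and epsilon subunits (Eif2b3 and Eif2b5) form the catalytic subcomplex, and epsilon carries the exchange activity. The alpha, beta and delta subunits (Eif2b1, Eif2b2 and Eif2b4) form the regulatory subcomplex, which binds eIF2 phosphorylated on its own alpha subunit. That phosphorylated form blocks eIF2B, lowers general translation and raises translation of the transcription factor ATF4, a programme called the integrated stress response. In humans, inherited partial loss of any of the 5 subunits causes the brain disease vanishing white matter.

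Values are RMA log2 signals as the authors deposited them, so a difference of 1 is a doubling. The arrays had a median of 7.405 and carried no detection calls. The male label went against the values, since Xist read 11.15 to 11.67 on all arrays and 6 Y-linked probe sets read no higher than 4.89. The Hoxc13 probe set read 8.95, 8.75 and 9.74 in mutant skin and 9.63, 9.81 and 9.83 in wild type skin (difference -0.61, SE 0.23, limma adjusted p = 0.293), and the groups overlapped through mutant replicate 3. Without that array the difference was -0.90 (limma adjusted p = 0.00114). The position of its probes relative to the disruption was not known, so it does not check the labels. Hair shaft keratin genes, by contrast, had a list mean of at most 6.01 on each array labelled mutant, against at least 11.72 on each array labelled wild type. Mutant replicate 3 stood apart, with correlations across probe sets of 0.989 and 0.99 with the other mutant arrays, against 0.997 between those. Results are therefore also given without it. The 8 keratinocyte markers that define skin all read at least 9.26 on every array.

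The 5 genes lie on 4 chromosomes. In the RefSeq table of GRCm38.p6, which is not known to be the build of the array design, Eif2b1 spans chr5:124570214-124579131 and Eif2b4 chr5:31187558-31193139. Eif2b2 spans chr12:85219481-85226628, Eif2b3 chr4:117019399-117086852 and Eif2b5 chr16:20498795-20509325. Promoter windows from 250 bases before to 50 after a transcript start in the RefSeq promoter table were matched for 4 of the 5 members, and Eif2b3 was not matched. That start is the end of the gene span for Eif2b1, Eif2b2 and Eif2b4, and lies 22 bases inside the span for Eif2b5. They are printed because the members' values were lower together. Eif2b1 (chr5:124579082-124579381) and Eif2b4 (chr5:31193090-31193389) are read on the minus strand, Eif2b2 (chr12:85219231-85219530) and Eif2b5 (chr16:20498567-20498866) on the plus strand. The sequences are RefSeq's, 5′ to 3′, with capitals marking CCGGAAG, an ETS family site, and CCAAT, the CCAAT box, on either strand (ATTGG is CCAAT on the other strand).
Eif2b1 promoter: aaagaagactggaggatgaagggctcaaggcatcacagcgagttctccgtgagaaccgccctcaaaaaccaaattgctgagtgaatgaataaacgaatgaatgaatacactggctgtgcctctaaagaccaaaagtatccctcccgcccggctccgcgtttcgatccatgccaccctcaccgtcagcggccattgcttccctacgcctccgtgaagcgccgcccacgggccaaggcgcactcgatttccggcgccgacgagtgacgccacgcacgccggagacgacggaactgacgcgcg
Eif2b2 promoter: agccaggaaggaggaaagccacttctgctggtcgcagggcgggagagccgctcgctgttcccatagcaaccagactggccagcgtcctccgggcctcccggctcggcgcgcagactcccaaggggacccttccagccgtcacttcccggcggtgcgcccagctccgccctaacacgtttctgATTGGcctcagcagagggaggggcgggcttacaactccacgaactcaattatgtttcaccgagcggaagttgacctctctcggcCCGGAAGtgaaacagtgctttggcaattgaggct
Eif2b4 promoter: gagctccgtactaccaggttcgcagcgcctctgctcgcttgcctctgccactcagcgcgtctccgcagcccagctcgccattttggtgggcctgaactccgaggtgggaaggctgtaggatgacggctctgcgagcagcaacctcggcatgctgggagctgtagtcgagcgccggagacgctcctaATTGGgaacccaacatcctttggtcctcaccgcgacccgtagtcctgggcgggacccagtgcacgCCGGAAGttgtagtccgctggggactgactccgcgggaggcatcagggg
Eif2b5 promoter: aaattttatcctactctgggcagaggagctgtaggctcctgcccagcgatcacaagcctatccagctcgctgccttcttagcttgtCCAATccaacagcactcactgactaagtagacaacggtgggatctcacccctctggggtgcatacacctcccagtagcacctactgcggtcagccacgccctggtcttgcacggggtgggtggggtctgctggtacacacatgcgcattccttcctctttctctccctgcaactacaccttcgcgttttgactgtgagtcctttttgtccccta

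The ETS family site was in 2 of the 4 windows, beginning 1 base after the start of Eif2b4 and 16 bases after that of Eif2b2, and in 8.86% of all 32851 promoter windows of the same length. A CCAAT box was in 3 of the 4 windows (Eif2b2, Eif2b4 and Eif2b5) and in 37.4% of all windows. The windows of Eif2b1, Eif2b2 and Eif2b4 held 31, 22 and 25 CpG dinucleotides and that of Eif2b5 held 9, where the median of all windows was 7. The windows used for all these shares and the median were not restricted to protein-coding genes. Searched on both strands, none of the 4 windows held the C/EBP-ATF response element TGATGNAA (3.97% of all windows), the E-box CACGTG (7.15%), the cAMP response element TGACGTCA (1.79%), the NRF1 site (4.6%) or TATAAA (13.6%). Of the core letters known to be bound by HOXC13 in human, TTTAT was in the windows of Eif2b1 and Eif2b5 (40% of all windows) and TTAAT in none of the 4 (27.1%). TTTAT on the other strand is ATAAA, a part of TATAAA, but no matches overlapped in these windows. A match describes letters in a window and does not show a bound site.

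All 5 eIF2B subunit transcripts read lower in every mutant array than in any wild type array. The difference ranged from -0.39 for Eif2b1 to -0.76 for Eif2b4, which corresponds to signals 23.9% and 41.0% lower. The members were chosen with this contrast known, so their differences are given without a test. Skin was measured in bulk, where fewer cells of a type and less RNA per cell cannot be told apart. Levels of different probe sets are not comparable and are not ranked.

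**Figure D1:**
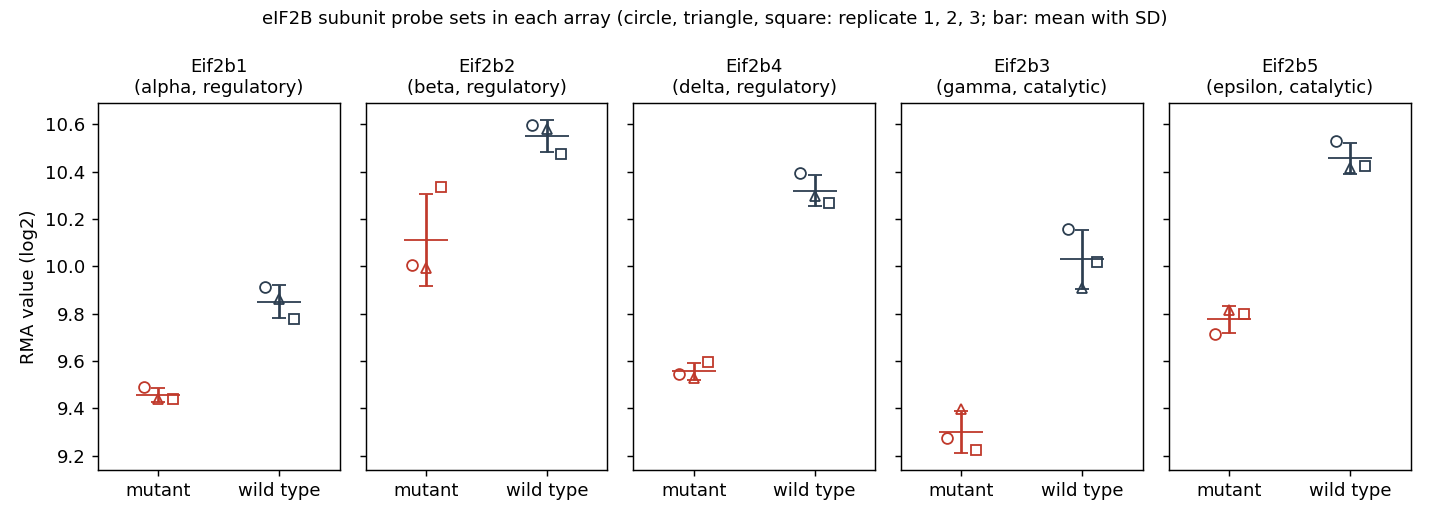
RMA value (log2, vertical axis) of each eIF2B subunit probe set in the 3 mutant arrays (red, left) and the 3 wild type arrays (blue, right), with the mean and SD of each group. The groups do not overlap in any of the 5 panels, and mutant replicate 3 (square) lies closest to the wild type arrays in the Eif2b2 panel.

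Among the regulatory subunits, Eif2b1 (alpha, Entrez gene 209354) read 9.49, 9.44 and 9.44 in mutant skin and 9.91, 9.86 and 9.78 in wild type skin. The mutant arrays lay close together (SD 0.03), below all wild type arrays (SD 0.07), and the difference was -0.39 (SE 0.07). Eif2b2 (beta, Entrez gene 217715) read 10.01, 9.99 and 10.33 in mutant skin and 10.60, 10.58 and 10.48 in wild type skin. Mutant replicate 3 lay between the other mutant arrays and the wild type arrays, which gave Eif2b2 the widest mutant spread of the 5 (SD 0.19) and a difference of -0.44 (SE 0.11). Without that array the difference was -0.55. Eif2b4 (delta, Entrez gene 13667) read 9.54, 9.53 and 9.60 in mutant skin and 10.39, 10.30 and 10.27 in wild type skin. Its difference of -0.76 (SE 0.07) was the largest of the 5 in size, with tight groups (mutant SD 0.03, wild type SD 0.07, n = 3 each).

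Both catalytic subunits were lower by amounts close to that of Eif2b4. Eif2b3 (gamma, Entrez gene 108067) read 9.28, 9.40 and 9.23 in mutant skin and 10.16, 9.91 and 10.02 in wild type skin. Mutant replicate 3 held its lowest value, and the difference was -0.73 (SE 0.09), or 39.7% lower. Eif2b5 (epsilon, Entrez gene 224045) read 9.71, 9.82 and 9.80 in mutant skin and 10.53, 10.41 and 10.42 in wild type skin. The mutant arrays of Eif2b5 varied little (SD 0.06), and the difference was -0.68 (SE 0.07), or 37.6% lower.

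The limma call rule (adjusted p under 0.05 over all 16331 probe sets) was met by 4 of the 5 members, all but Eif2b2, beside 1.60% of all probe sets called lower. Non-overlapping groups with the mutant lower were seen for 5 of 5 members and for 7.82% of all probe sets (20.3% in either direction). Nothing is read from these shares, because the members were picked with this contrast known. Differences as low as that of Eif2b4 were found in 1.22% of all probe sets, and as low as that of Eif2b1 in 3.15%. Without mutant replicate 3, 5 of the 5 met the call rule, where 6.23% of all probe sets were called lower and 7.95% higher. With any other single array left out 3 did, Eif2b3, Eif2b4 and Eif2b5, and with the replicate number as a block also 3. Without variance moderation 2 did, Eif2b4 and Eif2b5.

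**Figure D2:**
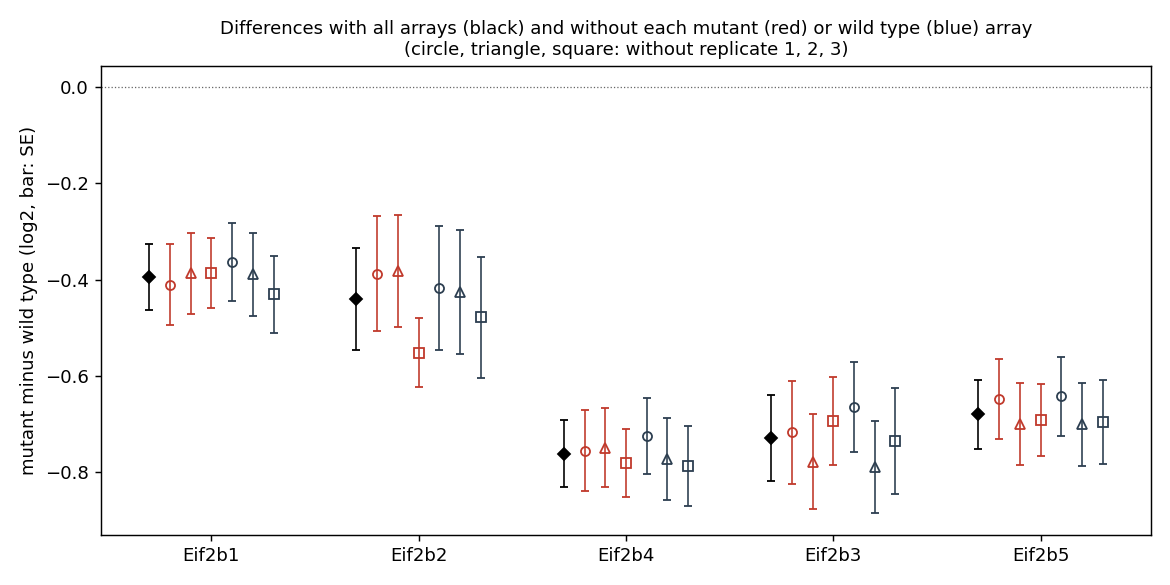
Difference of mean RMA values, mutant minus wild type (log2, vertical axis), with the SE of the limma fit, for each eIF2B subunit with all arrays (black) and without each mutant (red) or wild type (blue) array. All differences lie below 0, between -0.36 for Eif2b1 without wild type replicate 1 and -0.79 for Eif2b3 without wild type replicate 2.

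Regulatory and catalytic subunits were set side by side after each probe set was centred on its mean over the 6 arrays. The mean of the 3 regulatory subunits differed by -0.53 between mutant and wild type skin and that of the 2 catalytic subunits by -0.70. The catalytic mean minus the regulatory mean was -0.10, 0.04 and -0.19 in the mutant arrays and 0.13, 3e-04 and 0.13 in the wild type arrays. The groups overlapped, since mutant replicate 2 lay above wild type replicate 2, and the difference was -0.17 with an SD of 0.11 in mutant skin and 0.07 in wild type skin (n = 3 each). Without mutant replicate 3 it was -0.12.

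Eif2b4, a regulatory subunit, had centred values closer to those of the catalytic subunits than to those of the other regulatory ones. The root mean square distance of centred values over the 6 arrays was 0.055 between Eif2b4 and Eif2b5, 0.068 between Eif2b3 and Eif2b5 and 0.085 between Eif2b3 and Eif2b4. Distances of Eif2b4 from the other regulatory subunits were larger, at 0.19 from both Eif2b1 and Eif2b2. Eif2b1 and Eif2b2 lay 0.12 apart. These distances take in the mutant minus wild type difference, which was known when the members were chosen. A small distance therefore partly restates a similar difference and is not a separate result. The distances describe 6 shared arrays and were not tested.

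Among all 15644 named probe sets, Eif2b5 was the second closest to Eif2b4 and to Eif2b3 by this distance, and Eif2b4 was the second closest to Eif2b5. Differences as low as those of Eif2b3, Eif2b4 and Eif2b5 were found in 1.32%, 1.22% and 1.45% of all probe sets, so few could rank close. Such ranks therefore partly restate the difference known when the members were chosen, and are not a separate result. The closest to Eif2b4 was the tight junction claudin gene Cldn8 (distance 0.038), which read 8.22, 8.12 and 8.24 in mutant skin and 9.04, 8.94 and 8.98 in wild type skin. Clu, which encodes the secreted chaperone clusterin, came next after Eif2b5, at 0.069. The closest to Eif2b5 was Abhd13 (0.049), with Gdpd5 (0.060) next after Eif2b4. The closest to Eif2b3 was Cyfip2 (0.066), with the magnesium channel gene Trpm6 (0.076) next after Eif2b5. The closest to Eif2b2 were Ppp1r13b (0.017), Prr9 (0.039) and the aquaporin gene Aqp9 (0.045). Ppp1r13b, which encodes an ASPP family partner of p53, likewise read higher in mutant replicate 3 than in the other mutant arrays, at 9.23, 9.18 and 9.53 in mutant skin and 9.78, 9.78 and 9.65 in wild type skin. The closest to Eif2b1 were Crybg3 (0.039), the transporter gene Slc10a6 (0.040) and the small heat shock protein gene Hspb8 (0.044).

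Genes beside the eIF2B subunit genes differed between mutant and wild type skin by -0.11 to 0.10, and by -0.21 (Pgf) to 0.24 (Mlh3) without mutant replicate 3, and none was called in either fit. Eif2b1 and Gtf2h3, which encodes a subunit of the general transcription factor TFIIH, lie head to head with 16 bases between their annotated ends, and their promoter windows share 116 bases. Gtf2h3 read 8.77, 8.80 and 8.88 in mutant skin and 8.76, 8.99 and 8.94 in wild type skin. Its groups overlapped, with a difference of -0.08 (SE 0.08) that was not called (limma adjusted p = 0.719). Eif2b4 and the sorting nexin gene Snx17 also lie head to head, with 122 bases between their gene spans. Their windows share 264 bases, since the Snx17 window is built on a transcript start 42 bases inside its span. Snx17 read 11.78, 11.69 and 11.54 in mutant skin and 11.65, 11.59 and 11.63 in wild type skin. Here too the groups overlapped, and 0.05 (SE 0.08) was the difference, not called either (limma adjusted p = 0.843).

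The other genes directly beside a member with a probe set named here were the RNA helicase gene Ddx55 (0.06), next to the 3′ end of Eif2b1, Gtf3c2 (0.10), a transcription factor IIIC subunit gene near Eif2b4, and the mismatch repair gene Mlh3 (0.09), near Eif2b2. The remaining genes next to a member in the table, Gm45930, Gm12997, Gm41432 and Gm16618, and Gm22335, which overlaps Eif2b3, had no probe set named here, so the nearest measured gene was taken, a choice made after the values were seen. These were Pgf (-0.11) near Eif2b2, Hectd3 (-0.01) and Btbd19 (0.08) near Eif2b3, and Abcc5 (0.0067) and Dvl3 (0.003) near Eif2b5. Of the 10 measured neighbours limma called 0, beside 2.08% of all probe sets, and 0 had an unadjusted p under 0.05, beside 14.4%. A linear model without moderation called 0, and limma without mutant replicate 3 also called 0, beside 14.2% of all probe sets in the latter fit. For 10 genes, counts of 0 are near these shares, and nothing is read from them. The groups of Gtf3c2 did not overlap, with the mutant higher, where 20.3% of all probe sets had groups that did not overlap in either direction. Differences between a member and its neighbour were not tested.

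**Figure D3:**
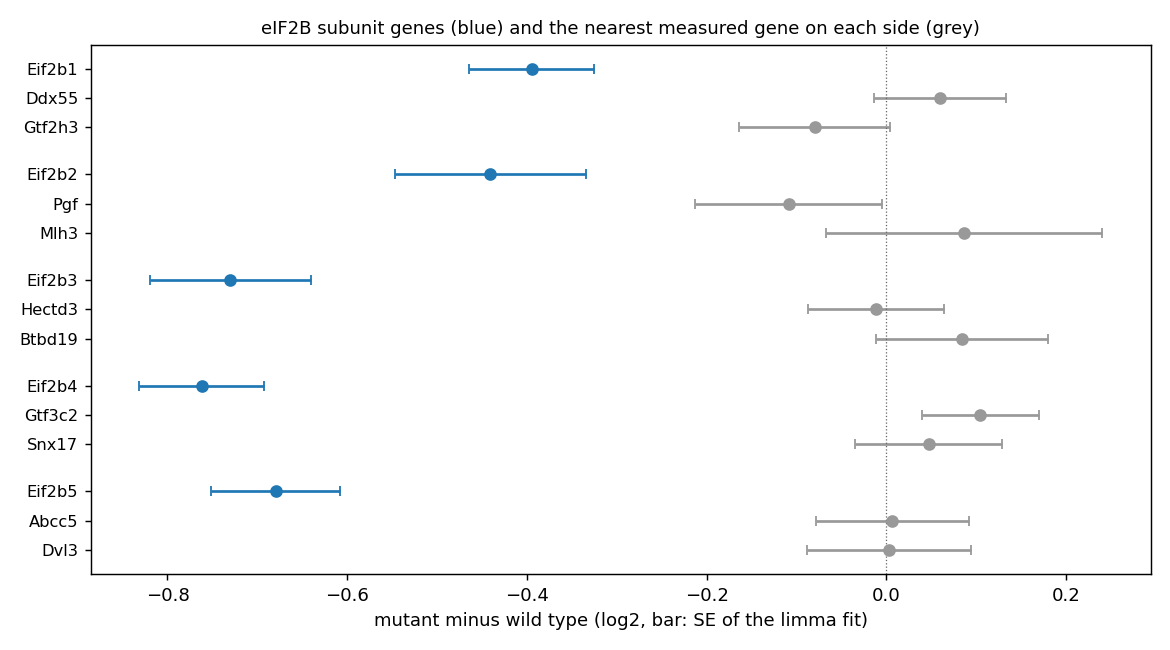
Difference of mean RMA values, mutant minus wild type (log2, horizontal axis), with the SE of the limma fit, for each eIF2B subunit gene (blue) and the nearest measured gene on each side (grey). With all 6 arrays the neighbours lie between -0.11 and 0.10, and the members between -0.76 and -0.39.

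Limma called 0 of the measured genes of the eIF2 substrate and of the other initiation factors, and 3 genes of the integrated stress response. Over 11 lists of translation and stress response genes, 143 of 167 listed genes were measured, and 1 was called higher and 2 lower, all in the integrated stress response list. The background was 0.478% of all probe sets called higher and 2.08% called in either direction. At an unadjusted p under 0.05 the lists held 6 higher and 22 lower genes of the 143. The share of all probe sets was 14.4%, in either direction. The linear model without moderation called 0. Limma without mutant replicate 3 called 3 of the 143 higher and 23 lower. Of all probe sets that fit called 7.95% higher and 6.23% lower (14.2% in either direction). The lists are described by their medians, beside a median of 0.025 over all probe sets. The members had a median of -0.68.

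**Figure D4:**
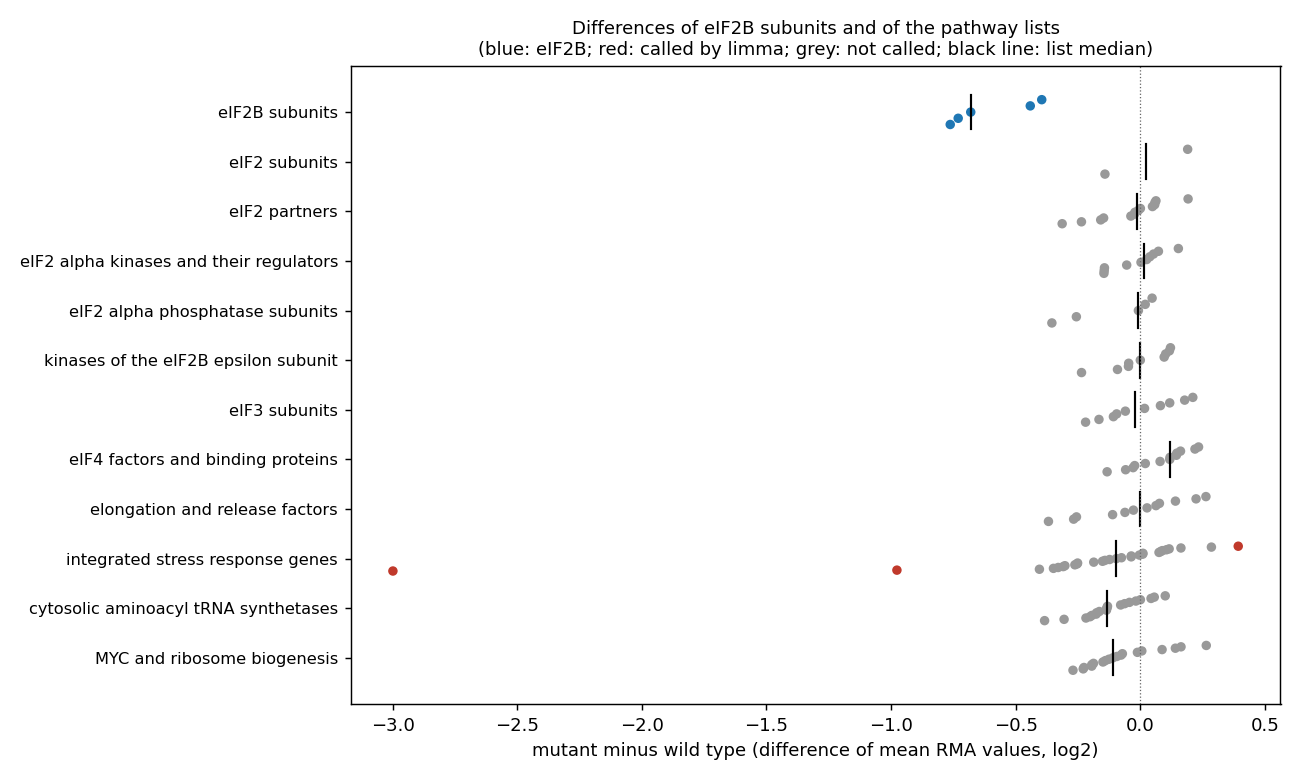
Difference of mean RMA values, mutant minus wild type (log2, horizontal axis), for the eIF2B subunits (blue) and each measured gene of the 11 lists (red where called by limma, grey where not), with a black line at each median. The eIF2B median lies at -0.68 and the other medians between -0.13 and 0.12.

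Of the eIF2 subunits, the direct substrate, 2 of 4 were measured and 0 were called by limma, with 1 at an unadjusted p under 0.05. Eif2s2, the beta subunit gene, read 9.18, 9.26 and 9.19 in mutant skin and 9.35, 9.34 and 9.38 in wild type skin. Its groups did not overlap, but -0.14 (SE 0.07) fell short of the call rule (limma adjusted p = 0.381). The gene at an unadjusted p under 0.05 was the Y-linked gamma subunit gene Eif2s3y, which read at most 3.32 on all arrays. Its difference of 0.19 was not called (limma adjusted p = 0.311). At that low level it says little about the substrate, so this list rests on Eif2s2. Among 14 measured genes listed as partners of eIF2, limma called 0, with 2 at an unadjusted p under 0.05 and a median of -0.014. The list was drawn up for start codon recognition, GDP release, assembly or alternative delivery of the initiator tRNA. Eif6, named here as an exception, was placed in it without a known role in these steps. The smallest p was that of Mcts2 (-0.31, SE 0.08, limma adjusted p = 0.141), a close copy of Mcts1, so its value is uncertain. With mutant replicate 3 left out, limma called 0 eIF2 subunit genes, and the partner genes Eif1b higher (0.27) and Eif5b lower (-0.28). These, and other genes named solely for a call in that fit, were chosen after their values were seen. In that fit 7.95% of all probe sets were called higher and 6.23% lower.

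Genes that set the phosphorylation of eIF2 had medians near 0. Of 10 measured eIF2 alpha kinase genes and regulators limma called 0, with 0 at an unadjusted p under 0.05 and a median of 0.015. The smallest p was that of Prkrip1, an inhibitor of the kinase PKR (-0.15, SE 0.07, limma adjusted p = 0.389). The 4 kinase genes themselves, named for their role, differed by 0.07 (Eif2ak1), 0.15 (Eif2ak2), 0.04 (Eif2ak3) and -0.14 (Eif2ak4). Of 5 measured phosphatase subunit genes 0 were called, with 1 at an unadjusted p under 0.05 and a median of -0.0067. Ppp1r15a, the stress-induced subunit GADD34 that directs phosphatase to eIF2, read 8.43, 8.52 and 8.80 in mutant skin and 9.12, 8.80 and 8.90 in wild type skin. The groups overlapped through mutant replicate 3, and the difference was -0.35 (SE 0.12, limma adjusted p = 0.247). Without that array it was -0.46 (limma adjusted p = 0.0238).

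Kinases known to phosphorylate the eIF2B epsilon subunit, among them GSK3, which inhibits it, had a median of 0.001. Of 9 measured limma called 0, with 1 at an unadjusted p under 0.05. This was Dyrk2, a kinase that primes epsilon for GSK3, with 7.37, 7.49 and 7.66 in mutant skin and 7.74, 7.75 and 7.74 in wild type skin (difference -0.24, SE 0.09, limma adjusted p = 0.272). Its mutant values all lay below the wild type values, and without mutant replicate 3 the difference was -0.31 (limma adjusted p = 0.0261).

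The eIF3, eIF4 and elongation and release factor lists also had 0 genes called by limma with all 6 arrays. The 10 measured eIF3 subunit genes had a median of -0.0205, with 2 at an unadjusted p under 0.05 and the smallest p at Eif3h (0.21, SE 0.06, limma adjusted p = 0.183). The 13 measured eIF4 factor and binding protein genes had a median of 0.12, with 1 at an unadjusted p under 0.05. This was Eif4ebp1, whose product holds back the cap-binding factor eIF4E, with 10.50, 10.51 and 10.58 in mutant skin and 10.37, 10.28 and 10.24 in wild type skin (difference 0.23, SE 0.07, limma adjusted p = 0.183). The 12 measured genes of the elongation and release factor list had a median of 7e-04, with 3 at an unadjusted p under 0.05. The smallest p was that of Eef1e1 (-0.27, SE 0.07, limma adjusted p = 0.107), which was placed in this list by its symbol, not by a known role in elongation. Limma without mutant replicate 3 called Eef1e1 (-0.27, adjusted p = 0.0377), Gspt1 (-0.47) and Eif3d (-0.27) lower and Eif4e3 (0.33) higher. Of all probe sets it called 6.23% lower and 7.95% higher.

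The 20 measured genes of the cytosolic tRNA synthetase list, which holds Aimp1 and Aimp2 beside the synthetase genes, had a median of -0.13. Of these, 5 had an unadjusted p under 0.05. The smallest p was that of the tyrosyl-tRNA synthetase gene Yars, with 8.79, 8.87 and 8.88 in mutant skin and 9.14, 9.14 and 9.16 in wild type skin. Its groups stood clear of each other, and the difference of -0.30 (SE 0.07) missed the threshold (limma adjusted p = 0.0739). Without mutant replicate 3 the difference was -0.32 (limma adjusted p = 0.0197). The 19 measured MYC and ribosome biogenesis genes had a median of -0.11, with 4 at an unadjusted p under 0.05 and the smallest at Rrn3, an RNA polymerase I initiation factor gene (-0.23, SE 0.07, limma adjusted p = 0.2). In the fit without mutant replicate 3, limma called the synthetase genes Yars, Cars and Sars lower, and in the MYC and ribosome biogenesis list Myc (-0.44), Max, Nop2, Bop1 and Rrp9, but not Rrn3. The share of all probe sets called lower there was 6.23%.

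In the integrated stress response list, which lies downstream of eIF2B, 2 genes fell and 1 rose among 29 measured. Chac1, which encodes a glutathione-degrading enzyme induced by ATF4, read 6.25, 6.21 and 6.65 in mutant skin and 9.98, 8.88 and 9.24 in wild type skin. It fell by 3.00 on the log2 scale (SE 0.26, limma adjusted p = 0.00111), and with any single array left out the limma adjusted p lay between 0.00043 and 0.00986. Cth, which encodes the cysteine-making enzyme cystathionine gamma-lyase, read 8.32, 8.51 and 8.08 in mutant skin and 9.44, 9.06 and 9.33 in wild type skin. It fell by 0.98 (SE 0.14, limma adjusted p = 0.0136), a call lost without mutant replicate 1 or wild type replicates 1 or 3 (differences from -1.08 to -0.86 over all arrays left out, limma adjusted p up to 0.0819).

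Ddit3, which encodes the stress-induced transcription factor CHOP, read 8.39, 8.35 and 8.33 in mutant skin and 8.004, 7.89 and 7.99 in wild type skin. It rose by 0.39 (SE 0.07, limma adjusted p = 0.0342), a call kept without mutant replicate 3 and lost without any 1 of the remaining arrays (0.36 to 0.42, limma adjusted p up to 0.144). The other 26 genes did not pass, and the list median was -0.10. Atf4 itself, named for its role, differed by 0.09 (SE 0.07, limma adjusted p = 0.619), and its groups overlapped. Without mutant replicate 3, 1 gene of the list was called higher and 9 lower, with a median of -0.18. Of all probe sets, 7.95% were called higher and 6.23% lower in that fit.

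Hair shaft, inner root sheath and skeletal muscle marker lists held called genes, in the same arrays as the lower eIF2B values. All 8 measured hair shaft keratin genes were called lower by limma, with list means of 5.44 to 6.01 in mutant skin and 11.72 to 12.08 in wild type skin. Of 7 inner root sheath genes 2 were called lower, beside 1.60% of all probe sets. Their list means were 12.38 to 12.88 in mutant skin and 13.19 to 13.28 in wild type skin. The 2 called genes, named for their calls, were Krt26 (-1.90) and Krt72 (-2.20). The 5 not called differed by -0.25 to 0.05, and the list median was -0.25. Of 12 skeletal muscle genes 1 was called higher, beside 0.478% of all probe sets. Their list means overlapped between the groups, at 10.57 to 11.59 in mutant skin and 9.80 to 11.01 in wild type skin. The linear model without moderation called 6 of the 8 hair shaft, 1 of the 7 inner root sheath and 0 of the 12 muscle genes. The part of these changes in the lower eIF2B values was not tested. Of 8 keratinocyte genes limma called 0, with 0 at an unadjusted p under 0.05. Their list means lay slightly higher in mutant skin without overlap (12.65 to 12.66, against 12.51 to 12.64 in wild type skin). Of 7 proliferation genes limma also called 0, with 0 at an unadjusted p under 0.05. Their list means overlapped (9.60 to 9.94 in mutant skin and 9.70 to 9.74 in wild type skin).

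Limma and the linear model without moderation called 0 genes of the keratinocyte, proliferation, fat cell, fibroblast, red blood cell, macrophage and melanocyte lists with all 6 arrays. For the last 5 of these, counts at an unadjusted p under 0.05 were 1 of 6, 2 of 8, 0 of 2, 0 of 8 and 2 of 8. Macrophage list means were 8.23 to 8.75 in mutant skin and 8.12 to 8.18 in wild type skin, and those of the other 4 lists overlapped between the groups. Without mutant replicate 3 limma called 4 of 8 macrophage, 4 of 12 muscle, 2 of 6 fat cell, 2 of 8 fibroblast and 1 of 7 proliferation genes higher. The share of all probe sets called higher in that fit was 7.95%. It called 8 of 8 hair shaft, 5 of 8 melanocyte, 4 of 7 inner root sheath and 1 of 2 red blood cell genes lower, beside 6.23%.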

How the data were processed

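Affymetrix arrays measured gene expression in 3 mutant and 3 wild type skin samples. Total RNA was purified with DNase treatment and amplified from an oligo(dT) primer, per the labels' protocols. The authors deposited log2 values from RMA, per the submitters' processing notes, with the version not given in the sources used here. This method gives every array the same distribution, which hides any change in total RNA. Of 16395 probe sets in the deposited values, 64 controls were dropped and 16331 tested. A gene symbol was listed for 15644 and none for 687, and 15617 Entrez gene numbers matched the RefSeq table of GRCm38.p6.

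Mutant and wild type arrays were compared in limma 3.58.1 under R 4.3.3 (lmFit, eBayes, two-sided, no filter, no block). Benjamini-Hochberg adjustment ran over all 16331 probe sets, with a threshold of 0.05. No p is given for the members. The fit was tested on simulated data. Python 3.11.15 searched the motifs and matplotlib 3.10.9 drew the figures. With 3 arrays a group, precision is limited, and the spread behind a p-value may be partly technical.

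The members and lists were chosen with earlier results of these data known. The names given are the members, Hoxc13, up to 4 called genes of each pathway list or the gene with its smallest p, the genes beside each member, and the 3 closest to each member by distance of centred values. Other names are marked where they occur. Alternatives were dropping the lowest 25% of probe sets by mean level, quantile normalising again, centring arrays, a trended robust prior, array weights, a replicate block, an unmoderated model, and omitting single arrays.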

Additional observations from a re-analysis of the deposited data

How the results depend on the processing

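The 5 eIF2B differences and the catalytic minus regulatory difference kept their direction, and moved by less than the SD pooled over both groups, under all 13 alternatives, though Eif2b1, Eif2b2 and Eif2b4 moved by more than the smaller of their group SDs. With single arrays left out, the differences ran from -0.43 to -0.36 for Eif2b1, -0.55 to -0.38 for Eif2b2, -0.79 to -0.67 for Eif2b3, -0.79 to -0.72 for Eif2b4 and -0.70 to -0.64 for Eif2b5, and from -0.23 to -0.12 for the catalytic minus regulatory difference. The count of called probe sets (339) was 1880 with array weights, 84 without variance moderation and between 151 and 2316 with single arrays left out, the highest without mutant replicate 3. Calls in the 11 lists together (3) numbered 25 with array weights, 0 without moderation and between 1 and 26 with single arrays left out. With the replicate block the counts were 197 and 1. Deviations from the group means correlated at 0.036, -0.119 and -0.087 for same-numbered arrays, and at -0.121 to 0.237 for differently numbered ones. With 3 arrays a group these values cannot show whether the replicate numbers pair the samples. With the block the calls of Cth (limma adjusted p = 0.0504) and Ddit3 (0.122) were lost, and without moderation those of Chac1 (0.0919), Cth (0.169) and Ddit3 (0.073). Small differences of neighbouring genes changed sign with array weights (Abcc5 -0.0247, Dvl3 -0.0535) and over the single arrays left out (Abcc5 -0.0392 to 0.0708, Dvl3 -0.0745 to 0.0555, Mlh3 -0.0298 to 0.24, Hectd3 -0.063 to 0.0265, Snx17 -0.0068 to 0.11), and none of these passed. The cause of these changes was not tested. Array weights gave 1041 higher and 839 lower probe sets, where the fit without weights gave 78 and 261.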
